A study of Mus musculus with 9 samples.

Results

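The 43 genes described here encode enzymes that join glutathione or sulfate to reactive chemicals, enzymes that remove oxidants and aldehydes, and the targets of the transcription factor NRF2 that supply them. They were measured in mouse colonic mucosa by Agilent 1-colour microarray. A probe was taken for a gene where its transcript accession maps to the gene's symbol in RefSeq, and the brightest kept probe stood for the gene. By this rule 42 of the 43 genes were measured, among 21084 features tested (14190 with a gene symbol), and Cbr1 had no probe named here. All 42 were well above local background on every array that gave a value. Sult1b1 lacked a value on hCA-Notumor replicate 3, where its spot was marked as an outlier, so its fit used 2 arrays of that group.

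The mucosa is labelled normal and came from mice of the outbred ICR stock, all of them given 1,2-dimethylhydrazine (DMH), which causes colon tumors in rodents, at 20 mg/kg under the skin each week over 20 weeks. The hCA-Notumor group (3 arrays) ate a diet of 3% calcium and had no tumors. The hCA-Tumor group (3 arrays) ate the same diet and had tumors, so both high calcium groups differ from each other by outcome and not by a treatment. The DMH group (3 arrays) ate a diet of 1.24% calcium, and its tumor status is labelled only as control. No group was free of the carcinogen. Whether each array is a mouse of its own is not in the labels, and p-values therefore cover the spread between arrays only, which may be technical.

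Conjugating enzymes act after a foreign chemical has been made reactive: glutathione transferases attach the tripeptide glutathione to electrophiles, and sulfotransferases attach sulfate to phenols and alcohols, which makes most products easier to export and a few of them more reactive. NRF2 is held down by its partner KEAP1 until electrophiles or oxidants modify KEAP1, after which NRF2 enters the nucleus and binds antioxidant response elements near genes for glutathione synthesis, conjugation and thioredoxin. Peroxidases, catalase and superoxide dismutases remove hydrogen peroxide, lipid peroxides and superoxide, which the colon epithelium meets from its own respiration, from inflammation and from the lumen. DMH is oxidised in the body through azoxymethane to methylazoxymethanol, and alcohol dehydrogenase is among the enzymes known to oxidise that metabolite further.

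A level below is the log2 processed signal minus the array's 75th percentile, so it has no unit and cannot be set against another probe's level. A difference is the difference of group means in log2 units with its standard error (SE, n = 3 arrays per group), from a limma fit on all features of the 9 arrays. A feature passed the test at a Benjamini-Hochberg adjusted p under 0.05 over all features. Between 61.1% and 73.7% of probes were well above background on an array, and 0 spots were saturated. Slide 1 carried the 3 hCA-Notumor arrays with DMH replicate 1, slide 2 carried hCA-Tumor replicates 1 and 2 with DMH replicates 2 and 3, and slide 3 carried hCA-Tumor replicate 3. Values with the slide as a block are therefore within-slide values for each high calcium group against DMH, while the comparison of both high calcium groups is linked across slides only through the DMH arrays. The within-slide value of hCA-Notumor against DMH rests on DMH replicate 1 alone. hCA-Tumor replicate 3 and DMH replicate 1 stood apart from their groups and leaned the same way, with a correlation of 0.57 between their deviations from the group means. The epithelial genes Epcam and Krt8 were well above background on all 9 arrays, as were the colonocyte chloride exchanger Slc26a3 and the goblet cell gene Tff3. So were all 10 smooth muscle genes examined. Their summed linear signal, in units of the array's 75th percentile, was 296 to 1005, and that of 8 epithelial genes was 913 to 1155. How much tissue from below the epithelium each sample held was not tested.

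Relative to DMH mucosa, mucosa of high calcium mice without tumors had higher signal for most glutathione transferases and for the alcohol and aldehyde dehydrogenases Adh1 and Aldh2, while the NRF2 targets Nqo1 and Hmox1 and the gut glutathione peroxidase Gpx2 were lower. Of the 42 genes, 14 were higher and 10 lower in hCA-Notumor, against 18.5% of all features higher and 17.2% lower, and 35.6% called in either direction. Mucosa of high calcium mice with tumors had fewer genes past the test: 5 were higher and 10 lower than in DMH mucosa, where 22.1% of all features were higher and 15.1% lower, and 37.2% were called in all. The share of members called was thus 57.1% in the first comparison, above that of all features, and 35.7% in the second, close to it. Prdx6 and Adh1 were higher, and Nqo1 and Gpx2 lower, in each high calcium group, and these differences share the DMH arrays. Between the high calcium groups 18 genes were higher and 2 lower in hCA-Notumor than in hCA-Tumor, against 19.8% of all features higher, 27.9% lower and 47.7% called in all.

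The counts differed with the scaling and with a slide term. With the slide as a block the counts became 14 higher and 4 lower in hCA-Notumor against DMH, 11 higher and 11 lower in hCA-Tumor against DMH, and 7 higher and 3 lower in hCA-Notumor against hCA-Tumor. The calls over all features were 27.4%, 43.8% and 31.8% there, so the members' counts moved in the same direction as those of all features. On the series matrix values, which the authors centred on each array's median, they became 4 higher and 5 lower, then 1 and 8, then 7 and 1, with 18.1%, 13% and 25.9% of all features called. That table holds fewer features (18459), so the scaling used here was also run on its probes, a setting added after the data were seen, which called 24, 19 and 20 members against 39.5%, 42.1% and 52% of all features. On those probes the median difference of all features was -0.14, -0.06 and -0.09 in the 3 comparisons with the authors' centring, against 0.05, 0.08 and -0.04 with the 75th percentile. Higher features were 29.3%, 39.5% and 37.0% of the calls with the authors' centring, against 51.3%, 59.7% and 41.2% on the same probes with the 75th percentile and 51.8%, 59.4% and 41.5% over all features here. The median difference of the 42 genes was 0.01, -0.03 and 0.18 with the scaling used here. Without DMH replicate 1 and hCA-Tumor replicate 3, likewise added, 18 genes were higher and 11 lower in hCA-Notumor, 11 and 11 in hCA-Tumor, and 21 and 3 between the high calcium groups, where 60.3%, 43.8% and 65.7% of all features were called. In that setting the hCA-Notumor and DMH arrays lie on different slides, and slide and group cannot be told apart.

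**Figure D1:**
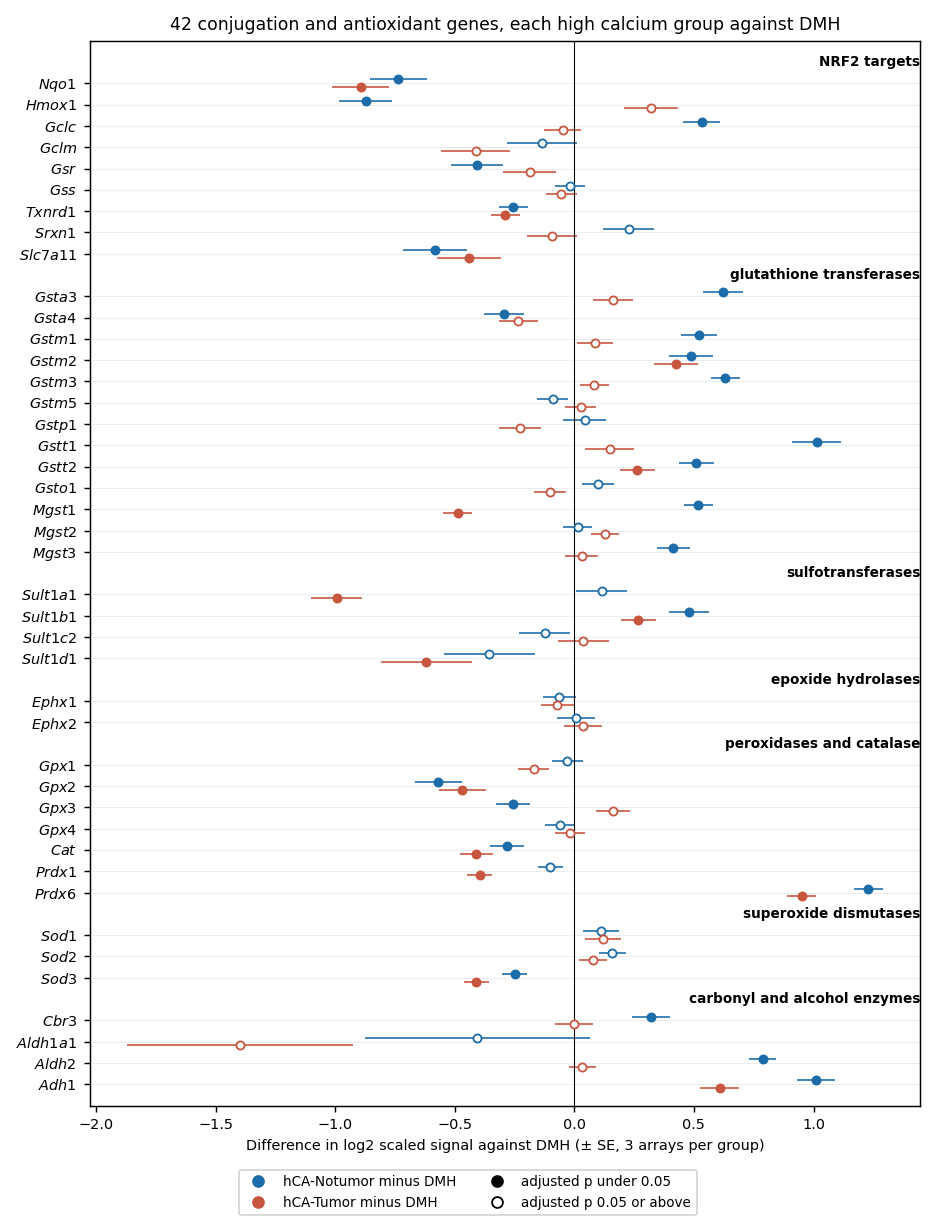
Difference in log2 scaled signal of each of the 42 measured genes, hCA-Notumor minus DMH (blue) and hCA-Tumor minus DMH (red), by role, with bars of 1 SE and filled points past adjusted p 0.05. Prdx6 lies farthest to the right in both comparisons, at 1.23 and 0.95, and most glutathione transferases lie right of 0 in blue and nearer to 0 in red.

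Among the 9 genes grouped here as NRF2 targets, 1 was higher and 5 were lower in hCA-Notumor than in DMH mucosa. In hCA-Tumor mucosa 0 were higher and 3 lower, and the median differences were -0.26 and -0.19. With the slide as a block the counts were 2 and 3, then 0 and 3. On the series matrix values they were 0 and 3, then 0 and 1. Members of other roles, among them Gpx2, can also be NRF2 targets, so these counts do not cover all targets among the members. Nqo1, a quinone reductase widely used as a readout of NRF2 activity, had levels of 0.59, 1.04 and 0.96 in hCA-Notumor, 0.60, 0.70 and 0.82 in hCA-Tumor and 1.65, 1.59 and 1.56 in DMH. Every array of both high calcium groups lay below every DMH array. Nqo1 fell by 0.74 ± 0.12 in hCA-Notumor (adjusted p = 0.00299) and by 0.89 ± 0.12 in hCA-Tumor (adjusted p = 0.00127), and the high calcium groups overlapped each other. Within slides the Nqo1 differences were -0.79 and -0.92.

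Hmox1, the inducible heme oxygenase that opens the heme ring and releases iron, split the high calcium groups. Its levels were 0.21, 0.55 and 0.19 in hCA-Notumor, 1.57, 1.42 and 1.54 in hCA-Tumor and 1.34, 1.1 and 1.13 in DMH. The hCA-Notumor arrays were all below the DMH arrays and the hCA-Tumor arrays all above them. Hmox1 fell by 0.87 ± 0.11 in hCA-Notumor against DMH (1.83-fold, adjusted p = 0.00107), while hCA-Tumor minus DMH was 0.32 ± 0.11 and missed the threshold (adjusted p = 0.0595), and it passed in 6 of the alternatives (adjusted p of 0.00779 to 0.0487). hCA-Notumor minus hCA-Tumor was -1.20 ± 0.11 (adjusted p = 0.000198), and -1.40 with the slide as a block (adjusted p = 0.00781).

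Some red cell genes differed between the same groups as Hmox1. Of 4 measured erythroid genes, 0 were higher and 3 lower in hCA-Notumor against DMH, and 0 passed in either direction in hCA-Tumor. Their summed linear signal, in units of the array's 75th percentile, was 2.35 to 5.25 in hCA-Notumor, 12.9 to 13.8 in hCA-Tumor and 9.45 to 11.1 in DMH. Hba-a1, an alpha globin gene, had levels of -0.14, 1.03 and -0.13 in hCA-Notumor, 2.43, 2.41 and 2.35 in hCA-Tumor and 2.25, 2.01 and 2.14 in DMH. The fourth gene, Slc4a1, the anion exchanger of the red cell membrane, did not share this pattern: its levels were -2.54, -2.41 and -2.48 in hCA-Notumor, -2.97, -2.89 and -1.79 in hCA-Tumor and -2.61, -3.54 and -3.04 in DMH, and its difference of 0.59 ± 0.35 in hCA-Notumor did not pass. hCA-Notumor replicate 2 was the highest of its group for Hmox1, Hba-a1, Hbb-bt and Alas2. Macrophage genes, another source of Hmox1 in mucosa, had 0 higher and 2 lower of 6 in hCA-Notumor, and 0 higher and 4 lower in hCA-Tumor. The part of either cell type in the Hmox1 result was not tested, and in bulk tissue fewer cells of a type and less RNA per cell cannot be told apart.

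**Figure D2:**
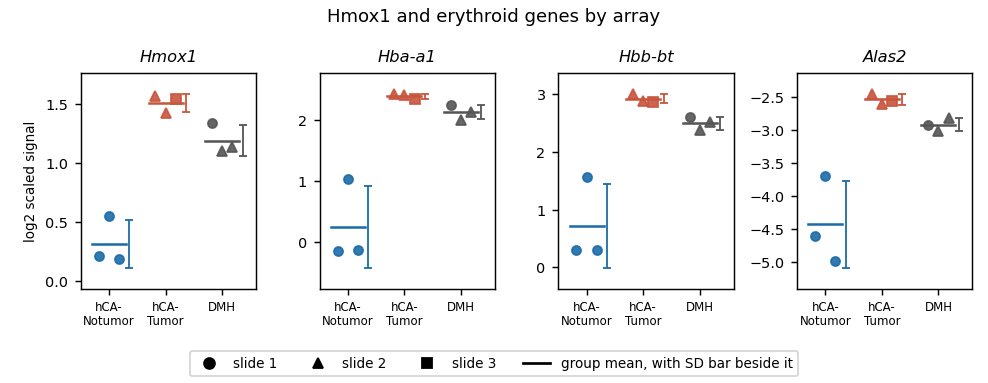
Log2 scaled signal on each array for Hmox1, the globin genes Hba-a1 and Hbb-bt and the erythroid heme synthesis gene Alas2, the 3 erythroid genes that passed the test in hCA-Notumor against DMH, with shapes for slides, lines for group means and bars for SD (n = 3 arrays per group). In all 4 panels the hCA-Notumor arrays lie lowest and the hCA-Tumor arrays highest.

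The genes of glutathione supply did not move together. Gclc, the catalytic subunit of the enzyme that starts glutathione synthesis, had levels of 2.58, 2.87 and 2.64 in hCA-Notumor, 2.12, 2.14 and 2.09 in hCA-Tumor and 2.19, 2.21 and 2.10 in DMH. It was higher in hCA-Notumor than in every other array, by 0.53 ± 0.08 against DMH (adjusted p = 0.00182) and 0.58 ± 0.08 against hCA-Tumor (adjusted p = 0.000837), while hCA-Tumor minus DMH was -0.05 ± 0.08. On the series matrix values the Gclc difference from DMH was 0.34 and did not pass (adjusted p = 0.164). Its regulatory partner Gclm had levels of 0.32, 0.29 and 0.20 in hCA-Notumor, 0.01, -0.05 and 0.02 in hCA-Tumor and 0.03, 0.59 and 0.59 in DMH, where DMH replicate 1 lay far below the other DMH arrays. hCA-Notumor minus DMH was -0.13 ± 0.15 over all arrays for Gclm, -0.32 without DMH replicate 1 (adjusted p = 0.00414) and 0.24 within slide 1, where DMH replicate 1 is the only DMH array, so that the slide and that array cannot be told apart. hCA-Tumor minus DMH was -0.41 ± 0.15 over all arrays, -0.60 without DMH replicate 1 (adjusted p = 0.000890) and -0.62 within slide 2 (adjusted p = 0.0014). Gss, the synthetase that completes glutathione, had differences of -0.02 and -0.05 from DMH, neither past the test.

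Slc7a11, the cystine importer that feeds glutathione synthesis, had low levels of -4.24, -3.75 and -4.08 in hCA-Notumor, -3.89, -3.75 and -4.01 in hCA-Tumor and -3.56, -3.42 and -3.33 in DMH. Both high calcium groups lay below all DMH arrays, by 0.58 ± 0.14 on the log2 scale in hCA-Notumor (adjusted p = 0.0138) and by 0.44 ± 0.14 in hCA-Tumor (adjusted p = 0.0375). Normexp background correction gave -0.13 and -0.11, neither past the test, and neither passed with the slide as a block. Txnrd1, which reduces cytosolic thioredoxin, had levels of 4.74, 4.78 and 4.85 in hCA-Notumor, 4.77, 4.78 and 4.73 in hCA-Tumor and 5.16, 4.98 and 5.0 in DMH. It fell by 0.26 ± 0.06 in hCA-Notumor (adjusted p = 0.015) and by 0.29 ± 0.06 in hCA-Tumor (adjusted p = 0.00845), with no array of either group reaching a DMH array. Neither Txnrd1 call held on the series matrix values (adjusted p = 0.0767 and 0.105).

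Some members had several kept probes, and 2 NRF2 targets gave answers that depended on the probe. Gsr, which regenerates reduced glutathione, fell by 0.41 ± 0.11 in hCA-Notumor by its brightest probe (adjusted p = 0.0251), while its other probes gave 0.05 and -0.51. The Gsr call ended with the slide as a block, at -0.21 (adjusted p = 0.212), on the series matrix values, and without hCA-Notumor replicate 2 or 3 or DMH replicate 2 or 3 (adjusted p of 0.0612 to 0.0846). In hCA-Tumor the Gsr probes gave -0.19, -0.59 and -0.35, with the brightest probe short of the threshold. Srxn1, which repairs over-oxidised peroxiredoxins, differed by 0.23 ± 0.11 in hCA-Notumor and -0.09 ± 0.11 in hCA-Tumor against DMH, neither past the test. Its 2 other probes gave -0.55 and -0.52 in hCA-Tumor, both past the test. Between the high calcium groups Srxn1 levels were 3.89, 4.01 and 4.03 in hCA-Notumor and 3.48, 3.70 and 3.79 in hCA-Tumor, and the difference of 0.32 ± 0.11 passed (adjusted p = 0.04) but fell to 0.14 with the slide as a block and did not pass. For Prdx6, Adh1 and Mgst1, described below, all kept probes passed the test in both comparisons with DMH, with 1 direction per gene within each comparison.

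**Figure D3:**
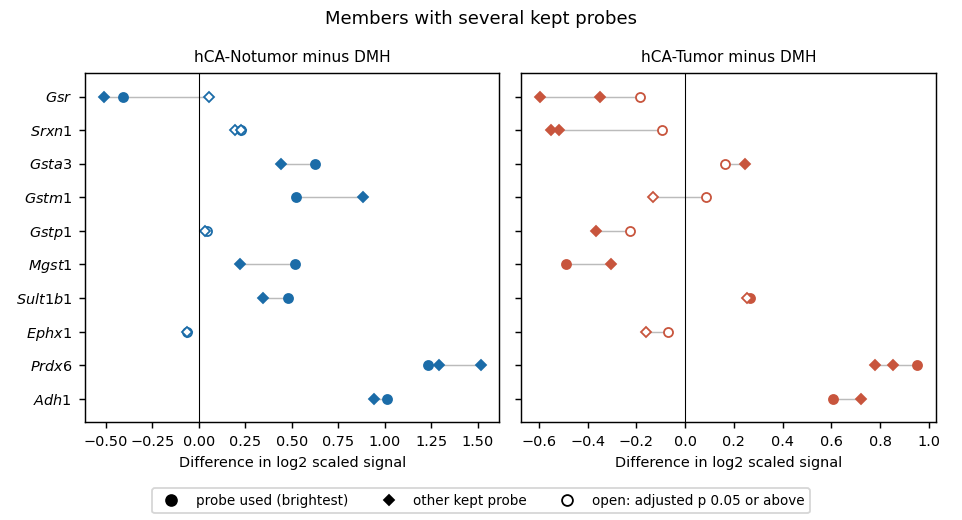
Difference in log2 scaled signal for each kept probe of the members that have more than 1, for hCA-Notumor minus DMH (left) and hCA-Tumor minus DMH (right), with circles for the brightest probe and diamonds for the others. The probes of Prdx6 lie between 1.23 and 1.51 on the left, while those of Gsr lie on both sides of 0 there.

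The letters of the antioxidant response element core, TGACNNNGC on either strand, were searched in the 250 bases upstream of the start sites of the member genes. The mouse sequences are those of RefSeq, build GRCm38.p6, and the table held windows for 34 of the member genes; Aldh2, Ephx2, Gclc, Gsr, Gsta4, Gstt2, Hmox1, Prdx6 and Sod3 were not in it. A match was present in 7 of 43 windows (16.3%), each of a different gene, against 10.2% of all 32851 windows of the same length. TGACTCA, the AP-1 site, was present in 6 of the 43 windows (14%), against 4.46% of all windows. The 7 genes with a match to the element were Gclm, Gsta3, Gstm5, Mgst1, Prdx1, Sod1 and Txnrd1, and the 4 of them that passed the test in at least 1 comparison are shown because their differences can then be read beside the letters. Each sequence covers positions -150 to -1 from the start site, 5′ to 3′ on the strand of the gene, with the match in capitals, and the positions are chr1:21240435-21240584, chr6:138140377-138140526, chr4:116685449-116685598 and chr10:82859056-82859205 in the order below, all on the plus strand.
Gsta3: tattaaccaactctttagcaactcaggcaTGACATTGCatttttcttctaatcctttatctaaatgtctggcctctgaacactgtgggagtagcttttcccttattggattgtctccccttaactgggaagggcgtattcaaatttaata
Mgst1: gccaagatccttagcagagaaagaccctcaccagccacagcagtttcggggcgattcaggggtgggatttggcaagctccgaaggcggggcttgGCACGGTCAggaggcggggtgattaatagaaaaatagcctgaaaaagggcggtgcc
Prdx1: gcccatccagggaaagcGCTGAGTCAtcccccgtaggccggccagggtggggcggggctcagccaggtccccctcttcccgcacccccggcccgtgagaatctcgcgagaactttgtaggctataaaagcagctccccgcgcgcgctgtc
Txnrd1: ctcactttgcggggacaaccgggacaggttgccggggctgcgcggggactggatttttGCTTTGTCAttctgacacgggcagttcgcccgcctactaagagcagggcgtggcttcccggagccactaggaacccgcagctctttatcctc
Of these 4, only in Gsta3 does the match read along the gene's own strand; in Mgst1, Prdx1 and Txnrd1 it is on the opposite strand, and in Prdx1 it overlaps TGACTCA. The 4 genes did not share a direction: Gsta3 and Mgst1 were higher and Txnrd1 lower in hCA-Notumor than in DMH, where Prdx1 was -0.10 and did not pass, and Mgst1, Prdx1 and Txnrd1 were lower in hCA-Tumor. A match is a run of letters in a window and says nothing of whether a factor binds there.

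The glutathione transferases made up the largest role, with 13 genes measured. In hCA-Notumor mucosa 8 of them were higher and 1 was lower than in DMH mucosa, with a median difference of 0.49 against 0.08 for all features. In hCA-Tumor mucosa 2 were higher and 1 was lower, with a median of 0.08 against 0.09 for all features. Against hCA-Tumor, 9 were higher and 0 lower in hCA-Notumor, with a median of 0.27. With the slide as a block the counts were 8 and 0 in hCA-Notumor against DMH, 6 and 1 in hCA-Tumor against DMH, and 3 and 1 between the high calcium groups. On the series matrix values they were 1 and 0, 0 and 1, and 3 and 0, and the medians were 0.30, -0.06 and 0.22. Many of these genes are close copies of one another, above all those of the mu class (Gstm1, Gstm2, Gstm3 and Gstm5). How far their probes take up each other's RNA was not tested. Gstm4, Gstm6 and Gstm7, also of the mu class, were measured outside these 13 genes. Gstm7 levels were -1.19, -1.16 and -1.17 in hCA-Notumor, all below the -1.10, -0.88 and -0.80 of DMH. Gstm6 levels in hCA-Notumor were 0.17, 0.02 and 0.09, all above the -0.43, -0.74 and -0.60 of DMH. For Gstm4 the hCA-Notumor and DMH arrays overlapped.

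Gstt1, a theta class transferase that acts on small halogenated chemicals, had levels of -0.41, -0.37 and -0.48 in hCA-Notumor, -1.34, -1.30 and -1.21 in hCA-Tumor and -1.19, -1.56 and -1.54 in DMH. All hCA-Notumor arrays stood above all others, whereas hCA-Tumor and DMH overlapped. The difference was 1.01 ± 0.10 against DMH (2.02-fold, adjusted p = 0.00035) and 0.87 ± 0.10 against hCA-Tumor (adjusted p = 0.000496), and with a term for the slide these were 0.77 and 0.54. Gstm3 had levels of 5.39, 5.32 and 5.38 in hCA-Notumor, 4.85, 4.82 and 4.78 in hCA-Tumor and 4.85, 4.67 and 4.68 in DMH, which put the hCA-Notumor arrays above all others again. It was 0.63 ± 0.06 higher than in DMH (adjusted p = 0.000272) and 0.55 ± 0.06 higher than in hCA-Tumor (adjusted p = 0.00036), and the first difference did not pass on the series matrix values (adjusted p = 0.0803). Gsta3, an alpha class enzyme known in mice for conjugating the epoxide of aflatoxin, had levels of 1.81, 1.77 and 1.86 in hCA-Notumor, 1.42, 1.39 and 1.25 in hCA-Tumor and 1.35, 1.13 and 1.1 in DMH. The hCA-Notumor arrays lay above both other groups, by 0.62 ± 0.08 against DMH (adjusted p = 0.00117) and 0.46 ± 0.08 against hCA-Tumor (adjusted p = 0.00301), of which the second fell to 0.17 with the slide as a block and did not pass. The Gsta3 difference from DMH did not pass on the series matrix values (adjusted p = 0.108). With a term for the slide Gstt1, Gstm3 and Gsta3 also passed in hCA-Tumor against DMH, at 0.23, 0.16 and 0.29.

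Mgst1, a membrane-bound transferase that also reduces lipid peroxides, lay on opposite sides of DMH in the high calcium groups. Its levels were 4.18, 4.12 and 4.15 in hCA-Notumor, 3.15, 3.11 and 3.16 in hCA-Tumor and 3.74, 3.52 and 3.63 in DMH. The 3 groups did not overlap, with hCA-Notumor highest and hCA-Tumor lowest. Mgst1 was 0.52 ± 0.06 higher in hCA-Notumor than in DMH (adjusted p = 0.00076) and fell by 0.49 ± 0.06 in hCA-Tumor (adjusted p = 0.00105). On the series matrix values the first of these was 0.33 and did not pass (adjusted p = 0.162). hCA-Notumor minus hCA-Tumor was 1.01 ± 0.06 (adjusted p = 4.04e-05), and 0.85 with the slide as a block. The other kept probe of Mgst1 gave 0.22, -0.30 and 0.52 in the 3 comparisons, all past the test.

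Gstm2 and Gstt2 were the transferases higher than DMH in both high calcium groups. Gstm2 had levels of 5.54, 5.39 and 5.56 in hCA-Notumor, 5.47, 5.50 and 5.33 in hCA-Tumor and 5.16, 5.01 and 4.86 in DMH. Its differences were 0.49 ± 0.09 in hCA-Notumor (adjusted p = 0.0057) and 0.43 ± 0.09 in hCA-Tumor (adjusted p = 0.00925), and the high calcium groups overlapped. Gstt2 had levels of 2.56, 2.4 and 2.51 in hCA-Notumor, 2.26, 2.24 and 2.24 in hCA-Tumor and 2.12, 1.94 and 1.88 in DMH, so the 3 groups kept apart in that order. Its differences were 0.51 ± 0.07 and 0.26 ± 0.07 against DMH (adjusted p = 0.00182 and 0.0273), and hCA-Notumor minus hCA-Tumor was 0.25 ± 0.07 (adjusted p = 0.0272) but 0.03 with the slide as a block, which did not pass. Neither gene passed against DMH on the series matrix values, where Gstm2 gave 0.30 and 0.28, and Gstt2 0.32 and 0.12.

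Gstm1 and Mgst3 were also higher in hCA-Notumor, by 0.52 ± 0.08 and 0.41 ± 0.07 against DMH (adjusted p = 0.00183 and 0.00339), and in hCA-Tumor were within 0.09 and 0.03 of DMH. Neither call held on the series matrix values, with 0.33 and 0.22. Gsta4, which conjugates the lipid peroxidation product hydroxynonenal, was the transferase that was lower, with levels of 0.52, 0.35 and 0.56 in hCA-Notumor and 0.72, 0.84 and 0.77 in DMH. It fell by 0.29 ± 0.08 in hCA-Notumor (adjusted p = 0.0283), a call that ended with the slide as a block (adjusted p = 0.115) and under normexp, and in hCA-Tumor it was -0.23 ± 0.08. Gstp1, the pi class enzyme abundant in the gut, did not pass against DMH, with differences of 0.04 in hCA-Notumor and -0.23 in hCA-Tumor. The hCA-Tumor difference passed by its other kept probe, at -0.37 (adjusted p = 0.00143), with the mean of its probes, at -0.30 (adjusted p = 0.0118), and under quantile normalization, at -0.35 (adjusted p = 0.0067). Gsto1 and Gstp1 were higher in hCA-Notumor than in hCA-Tumor by 0.20 ± 0.07 and 0.27 ± 0.09. Neither passed with a slide term, where they were 0.03 and -0.06. Gstm5 and Mgst2 passed in 0 of the 3 comparisons, but with the slide as a block Mgst2 was 0.18 in hCA-Tumor minus DMH (adjusted p = 0.0234) and -0.29 in hCA-Notumor minus hCA-Tumor (adjusted p = 0.0283).

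Markers of some cell types also differed between the groups. Of 8 genes of absorptive colonocytes, 5 were higher and 0 lower in hCA-Notumor than in DMH, 1 higher and 1 lower in hCA-Tumor than in DMH, and 5 higher and 0 lower in hCA-Notumor than in hCA-Tumor. Their summed signal was 670 to 810 in hCA-Notumor, 482 to 689 in hCA-Tumor and 585 to 717 in DMH. Not all of these genes rose in hCA-Notumor. Slc51a had levels of -1.99, 1.79 and 0.46 there and 2.29, 2.30 and 2.36 in DMH. Car1 had levels of 5.91, 7.30 and 6.44 in hCA-Notumor and 7.53, 7.24 and 7.32 in DMH. Neither gene passed the test in that comparison. Of 7 goblet cell genes, 5, 3 and 4 were higher and 0, 2 and 0 lower in the same comparisons, and their summed signal was 1798 to 1891, 1391 to 1681 and 1337 to 1460 in hCA-Notumor, hCA-Tumor and DMH. Of 10 smooth muscle genes, 6 were higher in hCA-Notumor and 10 in hCA-Tumor than in DMH, with 0 lower in each. Against hCA-Tumor, 0 of them were higher and 3 lower in hCA-Notumor. Their summed signal was 551 to 694, 764 to 1005 and 296 to 517 in hCA-Notumor, hCA-Tumor and DMH. All genes of these 3 lists were well above background on all 9 arrays, and their part in the transferase result was not tested. All 4 measured neutrophil genes were lower than in DMH in both high calcium groups, with median differences of -3.20 and -2.22. Their summed signal was 0.27 to 0.31 in hCA-Notumor, 0.52 to 0.63 in hCA-Tumor and 3.22 to 3.44 in DMH. Only 1 of them was well above background on all 9 arrays. The part of neutrophils in the values of the members was not tested.

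**Figure D4:**
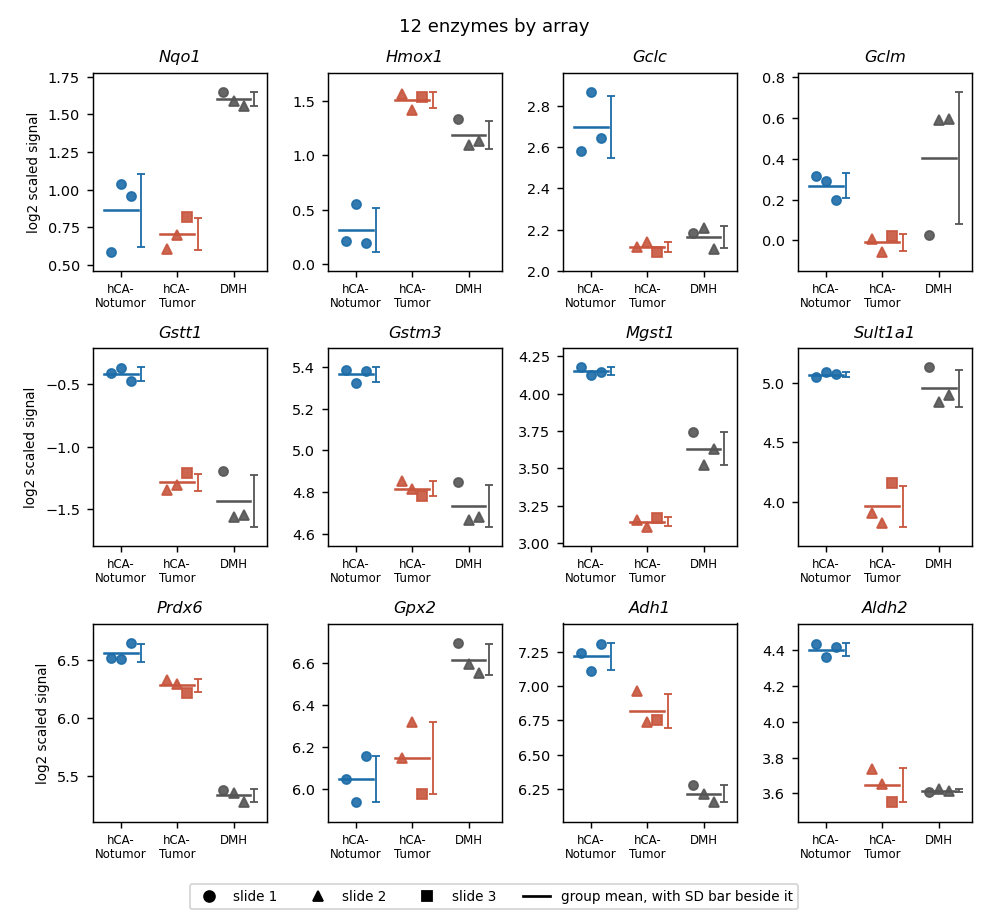
Log2 scaled signal of 12 of the enzymes on each array, by group, with shapes for slides, lines for group means and bars for SD (n = 3 arrays per group). The hCA-Notumor arrays stand alone at the top for Gclc, Gstt1, Gstm3 and Aldh2, the hCA-Tumor arrays alone at the bottom for Mgst1 and Sult1a1, and both high calcium groups lie above DMH for Prdx6 and Adh1.

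Among the 4 sulfotransferases, 1 was higher and 0 lower in hCA-Notumor than in DMH, and 1 was higher and 2 were lower in hCA-Tumor, with median differences of -0.01 and -0.29. Sult1a1, the main phenol sulfotransferase, had levels of 5.04, 5.09 and 5.07 in hCA-Notumor, 3.91, 3.82 and 4.15 in hCA-Tumor and 5.13, 4.83 and 4.90 in DMH. The hCA-Tumor arrays lay below all others, while hCA-Notumor and DMH overlapped. Sult1a1 fell by 0.99 ± 0.11 in hCA-Tumor against DMH (1.99-fold, adjusted p = 0.000554), and hCA-Notumor minus hCA-Tumor was 1.11 ± 0.11 (2.16-fold, adjusted p = 0.000209). With the slide as a block these were -1.0 and 0.94, both past the test.

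Sult1b1, a colonic sulfotransferase of phenols and thyroid hormone, had levels of 4.82 and 4.93 on the 2 hCA-Notumor arrays that gave a value, 4.63, 4.63 and 4.73 in hCA-Tumor and 4.51, 4.39 and 4.28 in DMH. The groups did not overlap, and its differences from DMH were 0.48 ± 0.08 in hCA-Notumor, a fit with 1 array missing (adjusted p = 0.00593), and 0.27 ± 0.07 in hCA-Tumor (adjusted p = 0.0316). Neither passed on the series matrix values, which gave 0.15 and 0.11. Sult1d1, which conjugates catecholamines in mice, had levels of 2.68, 3.11 and 2.73 in hCA-Notumor, 2.35, 2.37 and 3.00 in hCA-Tumor and 3.16, 3.23 and 3.21 in DMH. hCA-Tumor replicate 3 was well above the other hCA-Tumor arrays. Sult1d1 fell by 0.62 ± 0.19 in hCA-Tumor (adjusted p = 0.0375), with -0.85 within slide 2, where that array is absent, and in hCA-Notumor it was -0.36 ± 0.19 and did not pass. Sult1c2 passed in 0 of 3 comparisons, and so did the epoxide hydrolases Ephx1 and Ephx2, which open reactive epoxides with water and differed from DMH by -0.06 and 0.01 in hCA-Notumor and -0.07 and 0.04 in hCA-Tumor.

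Of the 7 peroxidases and catalase, 1 was higher and 3 were lower in each high calcium group than in DMH, with median differences of -0.10 in hCA-Notumor and -0.17 in hCA-Tumor. Prdx6, a peroxiredoxin that reduces phospholipid peroxides and uses glutathione, had the largest difference of the 42 genes in hCA-Notumor against DMH. Its levels were 6.53, 6.51 and 6.65 in hCA-Notumor, 6.34, 6.30 and 6.22 in hCA-Tumor and 5.38, 5.35 and 5.27 in DMH. The 3 groups did not overlap, with hCA-Notumor highest and DMH lowest. Prdx6 was 1.23 ± 0.06 higher in hCA-Notumor (2.34-fold, adjusted p = 1.53e-05) and 0.95 ± 0.06 higher in hCA-Tumor (1.93-fold, adjusted p = 0.000104) than in DMH. hCA-Notumor minus hCA-Tumor was 0.28 ± 0.06 (adjusted p = 0.00713) but 0.18 with the slide as a block, which did not pass (adjusted p = 0.222).

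Gpx2, the glutathione peroxidase of the gut epithelium and an NRF2 target, had levels of 6.05, 5.93 and 6.16 in hCA-Notumor, 6.15, 6.32 and 5.98 in hCA-Tumor and 6.70, 6.60 and 6.55 in DMH. Both high calcium groups lay below all DMH arrays and overlapped each other. Gpx2 fell by 0.57 ± 0.10 in hCA-Notumor (adjusted p = 0.00417) and by 0.47 ± 0.10 in hCA-Tumor (adjusted p = 0.00878), and on the series matrix values the second missed the threshold (adjusted p = 0.0535). Cat, the peroxisomal catalase, had levels of 1.24, 1.46 and 1.22 in hCA-Notumor, 1.17, 1.23 and 1.15 in hCA-Tumor and 1.58, 1.57 and 1.62 in DMH, again with all DMH arrays highest. It fell by 0.28 ± 0.07 in hCA-Notumor (adjusted p = 0.0176), not past the test with the slide as a block (adjusted p = 0.11), and by 0.41 ± 0.07 in hCA-Tumor (adjusted p = 0.00349). Prdx1, an abundant cytosolic peroxiredoxin, had levels of 5.26, 5.20 and 5.22 in hCA-Notumor, 4.97, 4.91 and 4.92 in hCA-Tumor and 5.42, 5.27 and 5.30 in DMH, so the groups kept apart in the order DMH, hCA-Notumor, hCA-Tumor from high to low. Prdx1 fell by 0.40 ± 0.05 in hCA-Tumor against DMH (adjusted p = 0.00124), was -0.10 ± 0.05 in hCA-Notumor and did not pass there, and was 0.30 ± 0.05 higher in hCA-Notumor than in hCA-Tumor (adjusted p = 0.00298), which with the slide as a block was 0.15 and did not pass.

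Gpx3, a secreted glutathione peroxidase, had levels of 1.29, 1.42 and 1.21 in hCA-Notumor, 1.76, 1.75 and 1.66 in hCA-Tumor and 1.49, 1.53 and 1.66 in DMH. It was lowest in hCA-Notumor, by -0.26 ± 0.07 against DMH (adjusted p = 0.0288) and -0.42 ± 0.07 against hCA-Tumor (adjusted p = 0.00264), and neither difference passed with the slide as a block (adjusted p = 0.2 and 0.0845). Gpx1 and Gpx4, the cytosolic and phospholipid glutathione peroxidases, passed in 0 of 3 comparisons, with differences from DMH of -0.03 and -0.06 in hCA-Notumor and -0.17 and -0.02 in hCA-Tumor, and under quantile normalization Gpx1 passed in both, at -0.18 and -0.22. Of the 3 superoxide dismutases, 1 was lower in each high calcium group. Sod3, the extracellular enzyme, had low levels of -3.43, -3.55 and -3.52 in hCA-Notumor, -3.62, -3.68 and -3.69 in hCA-Tumor and -3.28, -3.27 and -3.20 in DMH. The groups did not overlap, and Sod3 fell by 0.25 ± 0.05 in hCA-Notumor (adjusted p = 0.00935) and by 0.41 ± 0.05 in hCA-Tumor (adjusted p = 0.00106), but normexp gave -0.04 and -0.07, neither past the test. The hCA-Notumor call also ended with the slide as a block, under quantile normalization and on the series matrix values (adjusted p = 0.078, 0.0822 and 0.0854). Most fat cell genes were lower than DMH in both high calcium groups. Of 10 measured adipocyte genes, 0 were higher and 8 lower in hCA-Notumor, and 1 higher and 6 lower in hCA-Tumor. Their summed signal was 11.6 to 17.5 in hCA-Notumor, 20.1 to 28.5 in hCA-Tumor and 50 to 54.2 in DMH. Gpx3 was 0.16 ± 0.07 in hCA-Tumor minus DMH and did not pass. Of 8 fibroblast genes, 0 were higher and 4 lower than DMH in hCA-Notumor, and 4 higher and 1 lower in hCA-Tumor. Their summed signal was 95.7 to 104 in hCA-Notumor, 165 to 177 in hCA-Tumor and 114 to 125 in DMH. The part of fat cells or fibroblasts in the values of Gpx3, Sod3 and the other members was not tested. Sod1 and Sod2, the cytosolic and mitochondrial enzymes, passed in 0 of 3 comparisons, with 0.11 and 0.16 in hCA-Notumor and 0.12 and 0.08 in hCA-Tumor against DMH. With the slide as a block both passed in hCA-Tumor minus DMH, at 0.22 and 0.16 (adjusted p = 0.015 and 0.0483), and Sod1 passed in hCA-Notumor minus hCA-Tumor, at -0.27 (adjusted p = 0.0396).

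Of the 4 measured carbonyl and alcohol enzymes, 3 were higher and 0 lower in hCA-Notumor than in DMH, 1 was higher in hCA-Tumor than in DMH, and 3 were higher in hCA-Notumor than in hCA-Tumor. Adh1, the class I alcohol dehydrogenase, had levels of 7.24, 7.11 and 7.31 in hCA-Notumor, 6.96, 6.74 and 6.75 in hCA-Tumor and 6.27, 6.21 and 6.15 in DMH. The groups kept apart, with hCA-Notumor highest and DMH lowest. Adh1 was 1.01 ± 0.08 higher in hCA-Notumor (2.01-fold, adjusted p = 0.000138) and 0.61 ± 0.08 higher in hCA-Tumor (1.52-fold, adjusted p = 0.0013) than in DMH, of which the second did not pass on the series matrix values, at 0.47 (adjusted p = 0.1). hCA-Notumor minus hCA-Tumor was 0.40 ± 0.08 (adjusted p = 0.00529) and 0.28 with the slide as a block, which did not pass.

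Aldh2, the mitochondrial enzyme that clears acetaldehyde and lipid aldehydes, had levels of 4.43, 4.36 and 4.42 in hCA-Notumor, 3.74, 3.65 and 3.55 in hCA-Tumor and 3.61, 3.62 and 3.61 in DMH. The hCA-Notumor arrays stood above all others, while hCA-Tumor and DMH overlapped. Aldh2 was 0.79 ± 0.06 higher in hCA-Notumor than in DMH (1.73-fold, adjusted p = 8.7e-05) and 0.76 ± 0.06 higher than in hCA-Tumor (adjusted p = 7.98e-05), and hCA-Tumor minus DMH was 0.03 ± 0.06 (adjusted p = 0.709). Cbr3, a carbonyl reductase, had levels of 1.54, 1.46 and 1.54 in hCA-Notumor, 1.23, 1.25 and 1.09 in hCA-Tumor and 1.35, 1.1 and 1.13 in DMH. It was 0.32 ± 0.08 higher in hCA-Notumor than in DMH (adjusted p = 0.0192) and 0.32 ± 0.08 higher than in hCA-Tumor (adjusted p = 0.0135), and with the slide as a block these were 0.16 and 0.04, neither past the test. Aldh1a1, which makes retinoic acid from retinal, had levels of 3.58, 4.69 and 4.30 in hCA-Notumor, 2.47, 2.86 and 4.26 in hCA-Tumor and 4.77, 4.48 and 4.54 in DMH, the widest spread within the high calcium groups of the 42 genes. hCA-Tumor minus DMH was -1.40 ± 0.47 (adjusted p = 0.0522), and without hCA-Tumor replicate 3, which is absent from slide 2, it was -1.84 within that slide (adjusted p = 0.00999).

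Between the high calcium groups, 7 members passed the test both over all arrays and with the slide as a block. Gclc, Gstm3, Gstt1, Mgst1, Sult1a1 and Aldh2 were higher and Hmox1 was lower in hCA-Notumor than in hCA-Tumor. These 7 also passed under each other alternative tried and with each array left out. Against DMH, the members that passed under all of these settings were Nqo1, Hmox1, Gstt1, Gpx2, Prdx6, Aldh2 and Adh1 in hCA-Notumor, and Nqo1, Mgst1, Sult1a1, Cat, Prdx1 and Prdx6 in hCA-Tumor. Arrays of the compared groups did not overlap for 28, 21 and 26 of the 42 genes in the 3 comparisons, against 58%, 49.6% and 59.2% of all features.

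**Figure D5:**
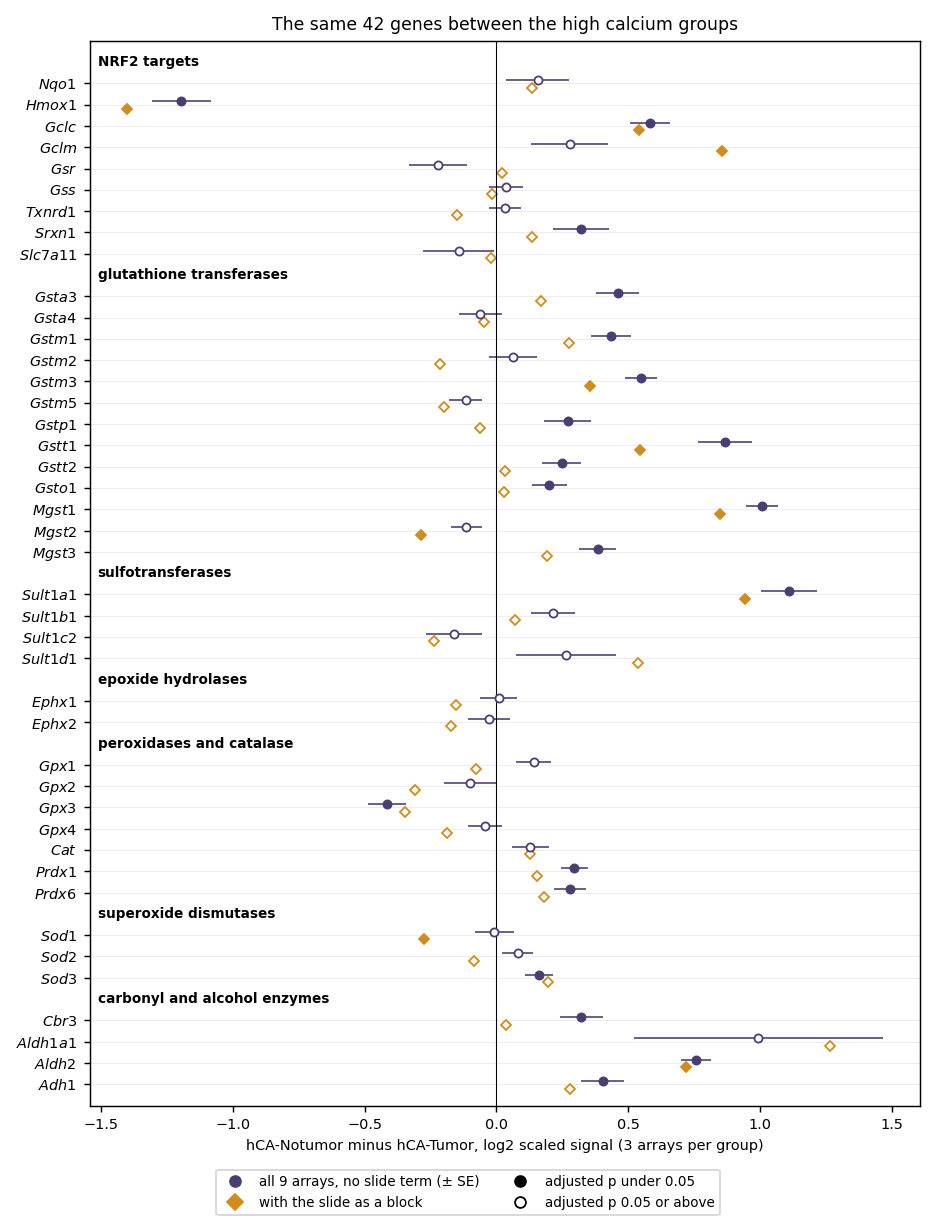
Difference in log2 scaled signal between hCA-Notumor and hCA-Tumor for the 42 genes, over all 9 arrays (violet circles, bars of 1 SE) and with the slide as a block (orange diamonds), with filled symbols past adjusted p 0.05. Hmox1 lies farthest left, at -1.20 and -1.40, and most orange diamonds of the glutathione transferases lie left of their circles.

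Genes next to these enzymes in the same pathways were counted too, where 35.6%, 37.2% and 47.7% of all features were called in the 3 comparisons. Of 9 measured NRF2 regulators, 2 were higher and 0 lower in hCA-Notumor than in DMH, 2 higher and 2 lower in hCA-Tumor than in DMH, and 3 higher and 1 lower in hCA-Notumor than in hCA-Tumor. Bach1, the heme-sensitive repressor of Hmox1, was 1.11 ± 0.10 higher in hCA-Notumor than in DMH (adjusted p = 0.000233) and 0.81 ± 0.10 higher than in hCA-Tumor (adjusted p = 0.000651). Keap1 was 0.62 ± 0.08 in hCA-Notumor and -0.29 ± 0.08 in hCA-Tumor against DMH (adjusted p = 0.00126 and 0.0279), on opposite sides, and 0.91 ± 0.08 between the high calcium groups. Maff, a small partner of NRF2, was 0.52 ± 0.07 higher in hCA-Tumor (adjusted p = 0.00139) and -0.17 ± 0.07 in hCA-Notumor, which did not pass. Nfe2l2, which encodes NRF2, was -0.07 ± 0.06 in hCA-Notumor and fell by 0.25 ± 0.06 in hCA-Tumor (adjusted p = 0.0109), a call that did not hold under normexp.

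Of 17 other NRF2 and NADPH genes, 2 were higher and 5 lower in each high calcium group than in DMH, and 6 were higher and 6 lower in hCA-Notumor than in hCA-Tumor. Osgin1 levels were 2.20, 2.09 and 2.28 in hCA-Notumor, 1.82, 1.85 and 1.94 in hCA-Tumor and 1.71, 1.51 and 1.41 in DMH. All arrays of both high calcium groups thus lay above all DMH arrays for Osgin1, and the same held for the thioredoxin gene Txn1. Abcc4, an exporter of conjugates, fell by 0.73 ± 0.07 in hCA-Notumor (adjusted p = 0.000218), and Akr1b8, an aldo-keto reductase, fell by 0.73 ± 0.09 in hCA-Tumor (adjusted p = 0.0011). Abcc2, another conjugate exporter, was not well above background on any hCA-Notumor array, with a mean level of -6.52 there and -4.61 in DMH. The limma fit on these levels gave an adjusted p of 0.000556. With the hCA-Notumor levels raised to each array's lowest signal well above background, Abcc2 was at least 1.77-fold lower than in DMH. That bound was not tested. Ugdh, which makes the donor for glucuronidation, fell by 0.99 ± 0.15 in hCA-Tumor (adjusted p = 0.00197). Blvrb levels were -4.72, -4.80 and -4.52 in hCA-Notumor, -1.67, -1.79 and -1.93 in hCA-Tumor and -4.51, -1.89 and -1.78 in DMH. DMH replicate 1, which shares slide 1 with the hCA-Notumor arrays, thus lay with them and apart from the other DMH arrays. The cause was not tested. Of 14 other glutathione genes, 5 were higher and 3 lower in each high calcium group than in DMH. Gsta1, a further alpha class transferase, was 1.03 ± 0.10 in hCA-Notumor and 0.40 ± 0.10 in hCA-Tumor (adjusted p = 0.000284 and 0.016), and Gstm6 was 0.68 ± 0.08 in hCA-Notumor (adjusted p = 0.000789). Glo1, the glyoxalase that clears methylglyoxal with glutathione, was 0.48 ± 0.10 in hCA-Notumor and 1.05 ± 0.10 in hCA-Tumor (adjusted p = 0.0108 and 0.000467).

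Of 8 other sulfonation genes, 1 was higher and 0 lower in hCA-Notumor than in DMH, and 1 higher and 2 lower in hCA-Tumor. Over all features 35.6% and 37.2% were called there. Papss2, which makes the sulfate donor that sulfotransferases use, fell by 0.90 ± 0.14 in hCA-Tumor against DMH (adjusted p = 0.00228) and was 0.99 ± 0.14 higher in hCA-Notumor than in hCA-Tumor (adjusted p = 0.00105). Slc26a2, a sulfate transporter, was 0.95 ± 0.07 higher in hCA-Notumor than in DMH (adjusted p = 0.000107), and 0.16 ± 0.07 in hCA-Tumor, which did not pass.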

How the data were processed

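RNA from 9 mouse colonic mucosa samples was labelled with Cy3 and hybridised to 1 Agilent array each, per the labels' protocols. The deposited intensity values are green processed signals made by Agilent Feature Extraction 10.5.1.1, per the submitters' processing notes, with background subtracted, per the file headers. The deposited series matrix holds log2 values, which equal log2 processed signal minus each array's median in every column (r of at least 0.999995); column medians ran from 2.36 to 2.80, and it served as an alternative. Here log2 processed signal minus each array's 75th percentile (534 to 773) was used, without control and outlier spots (383 probes touched). Local background had medians of 33.5 to 50. Of 41174 probes, 27192 stood well above background on the 3 arrays of 1 group or more and were kept. Transcript accessions were named through a RefSeq table (GRCm38.p6, names only), which gave 25097 probes 1 symbol and left 16077 unnamed. The brightest kept probe stood for a gene.

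The fit used limma 3.58.1 (R 4.3.3; lmFit, eBayes, Benjamini-Hochberg at 0.05 over 21084 features in each of 3 contrasts), tested on simulated data first. Samples were grouped by their titles. Alternatives were normexp on the median spot and background signals (offset 50, as the mean signal was not used here), quantile normalization, the series matrix, other filters and probe rules, slide and replicate blocks, array weights, 2-group fits and leaving out arrays, with the 75th percentile on the series matrix's probes added later. The number of arrays limits the precision. Replicate numbers did not pair samples: correlations of same-numbered arrays' deviations ran from -0.57 to 0.22. The members, roles and gene lists were chosen with earlier results of these data known, so no list was tested. Named members are Nqo1, Hmox1, Gclc and Slc7a11. Further named members are, per role and contrast, up to 3 with the largest difference past the test whose arrays do not overlap. Most companions named are among the 4 of their list with the largest difference past the test in a contrast, and not all of those are named.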

Additional observations from a re-analysis of the deposited data

Results flagged for a closer look

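Hmox1 and Mgst1 were singled out because all arrays of one high calcium group lay above all DMH arrays and all arrays of the other lay below them, and because the difference between the high calcium groups passed the test. For Hmox1 hCA-Notumor minus hCA-Tumor was -1.20 (adjusted p = 0.000198 in limma), with a range of -1.31 to -1.13 when each array was left out in turn. Of its 2 sides, hCA-Notumor against DMH passed at -0.87, and hCA-Tumor against DMH did not at 0.32. For Mgst1 hCA-Notumor minus hCA-Tumor was 1.01 (adjusted p = 4.04e-05), with a range of 0.99 to 1.02, and both sides passed against DMH, at 0.52 and -0.49, of which the first did not pass on the series matrix values (0.33, adjusted p = 0.162). The slide was unequal between the groups, and the values with the slide as a block were -1.40 for Hmox1 and 0.85 for Mgst1.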

How the results depend on the processing

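Members called in the 3 comparisons (hCA-Notumor minus DMH, hCA-Tumor minus DMH, hCA-Notumor minus hCA-Tumor) numbered 24, 15 and 20. The series matrix gave 9, 9 and 8, the slide block 18, 22 and 10, and array weights 30, 28 and 27. Leaving out each array gave 18 to 27, 11 to 20 and 15 to 24. All features called numbered 7507, 7845 and 10048. Normexp gave 3894, 4213 and 6235, the series matrix 3339, 2403 and 4783, array weights 13459, 10922 and 14974, and each array left out 5235 to 9447, 5958 to 8140 and 8279 to 12298. Without both DMH replicate 1 and hCA-Tumor replicate 3, chosen after seeing the data, 29, 22 and 24 members and 12703, 9244 and 13854 features were called. The replicate block, whose numbers share only a number and do not pair the samples, gave 21, 13 and 16 members and 5965, 6465 and 8899 features. Among differences that passed in either fit, signs reversed for Gclm in hCA-Notumor minus DMH (0.24, both under the slide block and within slide 1), for Gstp1 in hCA-Notumor minus hCA-Tumor (-0.0617 with a term for the slide), and for Abcc4 in hCA-Tumor minus DMH (-0.24 with the mean of its probes). The cause was not tested. A further 67 of 1596 member values changed sign with no call in either fit, arrays left out one at a time aside, 15 of them with the slide term and 20 in the series matrix. Slide 1 held 1 DMH array and slide 2 held 2, so within-slide values rest on few arrays, and Slc7a11 and Sod3 lost their calls against DMH under normexp. The 75th percentile on the probes of the series matrix, also chosen after seeing the data, gave 24, 19 and 20 members and 7299, 7766 and 9591 features.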

Other observations

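Of 16 other peroxidase and thiol enzymes measured, 4 were higher and 1 lower in hCA-Notumor than in DMH, and 6 higher and 5 lower in hCA-Tumor. Over all features 35.6% and 37.2% were called in these comparisons. Gpx7, a peroxidase of the endoplasmic reticulum, fell by 0.46 ± 0.06 in hCA-Notumor and was 0.43 ± 0.06 in hCA-Tumor against DMH (adjusted p = 0.000811 and 0.00115 in limma). Glrx, which removes glutathione from protein thiols, had differences of 0.47 ± 0.10 and -0.37 ± 0.10 (adjusted p = 0.00944 and 0.023). The metallothioneins Mt1 and Mt2, which bind zinc and scavenge oxidants, were 1.09 ± 0.15 and 1.14 ± 0.10 higher in hCA-Tumor than in DMH (adjusted p = 0.00127 and 0.000309). In hCA-Notumor they were 0.46 ± 0.15 and 0.38 ± 0.10 (adjusted p = 0.0441 and 0.0224), calls that ended under quantile normalization.

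Of 17 other aldehyde and alcohol enzymes, 4 were higher and 6 lower in hCA-Notumor than in DMH, and 1 higher and 7 lower in hCA-Tumor. The calls over all features were 35.6% and 37.2%. Aldh1a3, a retinal dehydrogenase, had levels of -0.09, -0.26 and -0.05 in hCA-Notumor, 1.88, 1.91 and 1.61 in hCA-Tumor and 2.59, 2.79 and 2.74 in DMH. It fell by 2.84 ± 0.10 in hCA-Notumor (adjusted p = 5.29e-06) and by 0.91 ± 0.10 in hCA-Tumor (adjusted p = 0.000664), with no overlap between groups. Aldh1a7, a close relative of Aldh1a1, had levels of 0.59, 0.50 and 0.60 in hCA-Notumor, -1.04, -0.91 and -0.64 in hCA-Tumor and -0.63, -0.78 and -0.76 in DMH, and was 1.29 ± 0.10 higher in hCA-Notumor than in DMH (adjusted p = 0.000129). Aldh1b1, a mitochondrial enzyme, was 0.61 ± 0.10 in hCA-Notumor and -0.37 ± 0.10 in hCA-Tumor against DMH (adjusted p = 0.00258 and 0.0208). Aldh3a2 levels were 0.44, 0.56 and 0.57 in hCA-Notumor, 2.04, 1.97 and 1.93 in hCA-Tumor and 0.81, 1.99 and 1.94 in DMH. As with Blvrb, DMH replicate 1 lay near the hCA-Notumor arrays of its slide, and the cause was not tested. Most squamous and mesothelial genes were lower in hCA-Notumor than in DMH, while in hCA-Tumor the squamous genes were mixed. Of 6 squamous genes, 0 were higher and 4 lower in hCA-Notumor and 2 higher and 2 lower in hCA-Tumor. Their median differences were -0.99 and 0.48. Of 5 mesothelial genes, 0 were higher and 5 lower in hCA-Notumor and 4 higher and 1 lower in hCA-Tumor. Their median differences were -1.44 and 0.97. The part of either cell type in the Aldh1a3 values was not tested.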
